A study of Mus musculus with 2 samples.

Results

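Differentiating spermatogonia, picked here by marker counts in single-cell RNA sequencing of mouse testis, were 404 of 26466 cell barcodes: 192 of the 13805 in the library with no diet on its label, and 212 of the 12661 in the high-fat library. A barcode was a member when it held 3 or more unique molecular identifiers (UMIs, each counting 1 captured RNA molecule) summed over Kit, Stra8, Sohlh1, Lin28a, Dmrt1, Crabp1 and Rhox13. These had to come from 2 or more of the 7 genes and reach 10 or more per 10000 UMIs of the barcode. The barcode also had to hold fewer than 2 UMIs summed over 9 genes of the undifferentiated state: Gfra1, Zbtb16, Id4, Ret, Etv5, Nanos3, Pou3f1, Pax7 and Bcl6b. Since measured counts chose the members, the values of these 16 genes in them are given below as a description only.

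Spermatogonia are the germ cells on the basement membrane of the seminiferous tubule. Those of the undifferentiated state include the stem cells, which depend on glial cell line-derived neurotrophic factor acting through Ret and Gfra1. Retinoic acid drives them into differentiation, when they gain the receptor tyrosine kinase Kit, divide by mitosis several times as connected cells and switch on Stra8, which is needed to enter meiosis. The first meiotic cells then assemble the synaptonemal complex, the protein scaffold that joins paired chromosomes.

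The study set testes of C57 BL/6 male mice on a high-fat diet beside testes of mice on a normal diet of maintenance feed. The mice were 5 weeks old, 20 in all, and after 1 week of adaptation 10 per diet were fed, with 60% of the energy from fat in the high-fat diet for 12 weeks, and mice were put into the diets at random. Each group is 1 library, so no comparison between the libraries has a replicate, a test or a p-value, and a difference belongs to these libraries and not to the diets. The label of the other library gives testicular tissue and no diet, and no label tells if the tissue in a library came from 1 mouse or several. Both are labelled germ cells, but the stated protocol has only collagenase IV and DNase I digestion, straining and droplet capture, with no step that selects germ cells.

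The libraries held 207667609 UMIs (no diet named) and 201842085 UMIs (high-fat), with medians of 13024 and 9772 UMIs per barcode. The barcode names are running cell numbers without sequence; 1507 names occurred in both libraries, but no member's name did. In what follows a pair of values gives the library with no diet on its label (the first library) before the high-fat library. Levels are CPM, the summed counts of a gene in a population scaled to 1000000 UMIs of that population, with 95% exact Poisson intervals where given, and ratios have exact conditional binomial intervals. All intervals cover counting error only, and "higher" or "lower" means at least 2-fold in the stated comparison unless values alone are given.

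Members were shallow barcodes. Their median was 2972.5 UMIs (range 1013 to 39146) and 1734 genes in the first library, and 2993.5 UMIs (range 1035 to 16065) and 1786 genes in the high-fat library. Their summed counts were 811235 and 793632 UMIs. The 10 deepest members held 22.3% and 15.4% of these, so summed levels lean on few barcodes. The rule genes together reached a median of 19.7 and 19.6 UMIs per 10000 in members, from 10.0 to 210 and from 10.0 to 154. Most members carried few rule UMIs: the median was 6 in both libraries, and 28 and 38 members had exactly 3. Members with 2 of the 7 genes numbered 58 and 72, those with 3 numbered 75 and 78, and those with all 7 numbered 0 and 2.

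The rate threshold separated barcodes of unequal depth. Those that met every other condition but fell short of 10 per 10000 numbered 56 and 81, with median depths of 7775 and 5988 UMIs. Just inside the threshold, at 10 to 12 per 10000, lay 27 and 29 members; just outside, at 8 to 10, lay 20 and 28 barcodes. Uchl1, a ubiquitin hydrolase of spermatogonia that the rule did not use, stood at 637 and 750 CPM just inside and at 615 and 455 CPM just outside. Dmrtb1, a transcription factor of spermatogonia, stood at 737 and 716 CPM inside and at 524 and 569 CPM outside. Both genes were lower just outside by value, Uchl1 in the first library by little. For Dmrtb1 nothing is read from this, because in the marker check below it did not set members apart from Sertoli-marked barcodes.

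**Figure D1:**
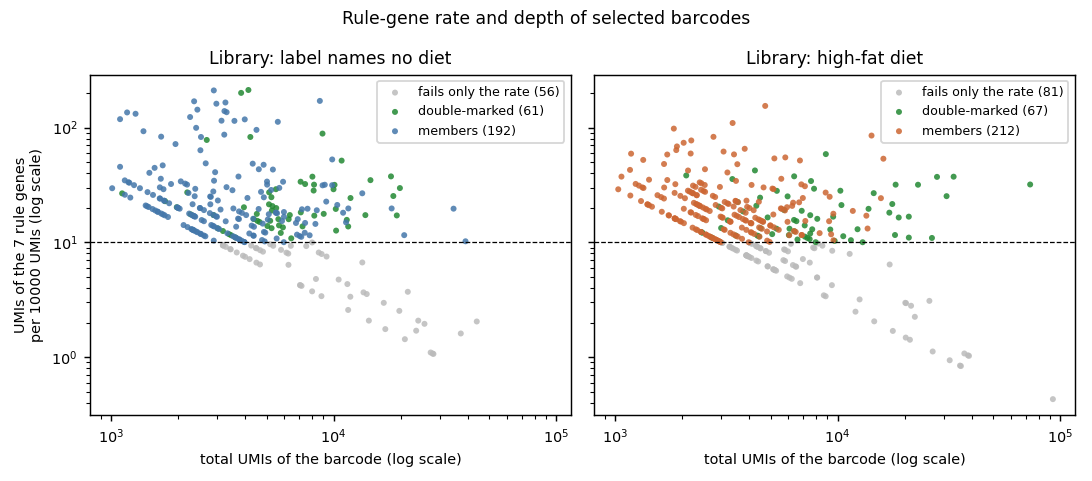
Total UMIs of each barcode (horizontal, log scale) against UMIs of the 7 rule genes per 10000 (vertical, log scale), for members and for barcodes that failed only the rate, in each library; the dashed line is the threshold of 10. Members have median rates of 19.7 and 19.6, and the barcodes under the line have median depths of 7775 and 5988 UMIs against 2972.5 and 2993.5 in members.

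The 7 rule genes were found in members in different patterns, described here without a test because they chose the members. Crabp1, which binds retinoic acid in the cell, was detected most often, in 72.9% and 69.8% of members. Lin28a, an RNA-binding protein that blocks maturation of the let-7 microRNAs, was found in 56.3% and 44.3%. Dmrt1, a transcription factor that holds germ cells back from meiosis, was found in 51.6% and 50.5%, and Sohlh1, a transcription factor needed for spermatogonial differentiation, in 47.9% and 42.9%. Stra8 was found in 36.5% and 39.2%, the X-linked homeobox gene Rhox13 in 32.8% and 39.6%, and Kit in 21.9% and 26.9%. Kit, the textbook marker of these cells, was thus the least often detected of the set, with 54 and 70 UMIs in all.

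Lin28a counts were spread unevenly over members. It gave 1309 and 733 UMIs, 55.0% and 37.5% of all rule UMIs, although the median member with any Lin28a held 3 and 2. A single barcode held up to 142 and 104 Lin28a UMIs, and the top 10 barcodes held 45.3% and 57.6% of them. For the other 6 rule genes the top 10 barcodes held from 22.6% (Crabp1) to 41.8% (Stra8) in the first library, close below Lin28a, and from 22.3% (Crabp1) to 34.6% (Stra8) in the high-fat library. No single barcode held more than 13 UMIs of any of them.

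Some pairs of rule genes were seen together in more members than others, which is given as a description only. A pair's count also depends on how often each of its genes was detected. The membership rule itself required rule genes to occur together. The counts were not compared with those expected from each gene's own detection, so nothing about joint expression is read from them. Dmrt1 and Crabp1 were both found in 76 and 80 members, Sohlh1 and Crabp1 in 66 and 73, and Lin28a and Crabp1 in 74 and 65. Stra8 and Lin28a were both found in 24 and 22 members, 12.5% and 10.4%. Kit and Stra8 shared 14 and 20 members. Stra8 with Rhox13 was found in 22 members of the first library and 44 of the high-fat library.

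The germ cell part of the label was checked against germ cell genes outside the rule. They were read in the same way in barcodes with Sertoli cell markers (742 and 1256 barcodes, median 1501.5 and 1754 UMIs), which should lack them. Each barcode was thinned to 1000 UMIs, and no member was left out. Dazl, an RNA-binding protein of germ cells, was then found in 30.7% and 27.4% of members against 2.02% and 2.79% of Sertoli-marked barcodes (unthinned 55.7% and 56.1% against 4.45% and 5.65%). Uchl1 was found in 46.4% and 43.9% against 22.1% and 20.5% (unthinned 75% and 71.2% against 31.3% and 33.0%). The de novo DNA methyltransferase Dnmt3b was found in 7.81% and 3.30% against 0.270% and 0.557%. Mki67, a protein of dividing cells, was found in 4.17% and 6.60% against 0.404% and 0.637%. These shares set members apart from Sertoli-marked barcodes only, not from the neighbouring germ cells described below. Early meiotic-marked barcodes, thinned alike, had Dazl in 43.6% and 52.1% and Mki67 in 14.1% and 16.0%. They had Uchl1 in 2.56% and 2.78% and Dnmt3b in 1.28% and 0.694%. Double-marked barcodes, which also held undifferentiated markers, had Uchl1 in 67.2% and 65.7% and Dnmt3b in 9.84% and 10.4%.

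Other markers gave less. Sall4, a zinc finger transcription factor of spermatogonia, was found before thinning in 12.0% and 8.49% of members, against 0.135% and 0.159% of Sertoli-marked barcodes. After thinning it was found in 2.60% and 1.89% of members against 0.135% and 0%. For Dmrtb1 the thinned share was 42.2% and 49.5% in members against 52.4% and 54.5%, and for the germ cell RNA helicase Ddx4 it was 15.6% and 16.5% against 19.8% and 16.9%. These shares were at or below those in Sertoli-marked barcodes, so neither gene sets members apart from them. The part of background RNA was not tested. Early meiotic-marked barcodes had Dmrtb1 in 24.4% and 31.3% and Ddx4 in 20.5% and 22.2%, thinned alike. Double-marked barcodes had Dmrtb1 in 21.3% and 38.8% and Ddx4 in 18.0% and 23.9%.

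Members also carried RNA of later germ cells. The 10 pachytene spermatocyte markers summed to 2817 and 2602 CPM in members, 35.1% and 34.4% of the level over all barcodes. The 10 elongating spermatid markers, among them the protamines, summed to 3249 and 3673 CPM, 52.9% and 42.0% of the level over all barcodes. Judged by the same form as the membership rule, 130 members (67.7%) of the first library and 209 (98.6%) of the high-fat library counted as marked for elongating spermatids, against 69.0% and 89.0% of all barcodes. Since most barcodes of both libraries met that form, it does not tell cell types apart here, and its part in the members' values was not tested. The 10 round spermatid markers summed to 703 and 882 CPM in members, 37.0% and 40.8% of the level over all barcodes. Their form was met by 25 members (13.0%) and 75 members (35.4%), against 50.3% and 53.1% of all barcodes. The part of this unequal share in comparisons between the libraries was not tested.

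Few members met a somatic marker form. Summed levels of Sertoli, endothelial and immune markers were above those over all barcodes in both libraries. Those of stromal and red blood cell markers were below, and Leydig and peritubular myoid markers were mixed. The part of somatic RNA in the members' values was not tested. The Sertoli marker form was met by 3 and 6 members, the Leydig form by 0 and 1, the peritubular myoid form by 2 and 0, and the endothelial form by 0 and 1. The stromal, immune and red blood cell forms were met by no member. Sertoli markers summed to 157 and 193 CPM in members (80.0 and 174 CPM over all barcodes), with Dhh at 0 in one library and Fshr at 0 in the other. Peritubular myoid markers summed to 62.9 and 17.6 CPM against 25.6 and 28.9 CPM over all barcodes, and immune markers to 19.7 and 35.3 CPM against 11.7 and 31.1 CPM. Endothelial markers summed to 60.4 and 44.1 CPM against 13.7 and 9.14 CPM over all barcodes, with Kdr at 0 in both libraries. Leydig markers summed to 2.47 and 8.82 CPM against 3.60 and 3.75 CPM over all barcodes, and stromal markers to 19.7 and 11.3 CPM against 21.8 and 19.7 CPM. Red blood cell markers summed to 1.23 and 3.78 CPM against 7.68 and 11.6 CPM. Of the Leydig markers, Cyp17a1, Hsd3b1 and Lhcgr were at 0 in members of both libraries, and Col1a2 and Col3a1 of the stroma were too. High doublet scores were given to 3 and 2 members.

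Against Sertoli-marked barcodes, members had higher levels of many DNA replication and methylation genes. At least 2-fold higher in both libraries were 1349 of 7647 genes tested (17.6%), and lower were 881 (11.5%). Genes tested had 50 or more UMIs over both populations in each library. Of 22 tested DNA replication genes, 16 were higher and 0 lower, with median log2 ratios of 1.85 and 1.78 beside −0.10 and −0.02 over all genes tested. Mcm2, a subunit of the replicative helicase, stood at 108 and 113 CPM against 1.10 and 1.30 CPM. Of 20 DNA methylation and chromatin genes 12 were higher and 0 lower, among them Hells, a chromatin remodeller needed for DNA methylation, at 304 and 306 CPM against 8.23 and 11.7 CPM.

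Other groups ran the same way, were mixed or ran the opposite way. Of 8 tested spermatogonial genes outside the rule 4 were higher and 2 lower (median log2 ratios 0.49 and 0.67), and of 16 genes of germ cell RNA binding 6 were higher and 0 lower (0.19 and 0.37). Among 8 tested X-linked germ cell genes 6 were higher and 2 lower; Usp26, a ubiquitin protease gene of spermatogonia, reached 329 and 219 CPM against 15.9 and 12.5 CPM. Of 61 cytosolic ribosomal protein genes 38 were higher and 1 lower. Glycolysis went the other way, with 7 of 15 lower and 0 higher: Ldhb, a lactate dehydrogenase subunit, was at 21.0 and 30.2 CPM in members and at 711 and 744 CPM in Sertoli-marked barcodes. Against all non-members, the contrast that the rule itself used, 8159 of 20146 genes were higher (40.5%) and 2149 lower (10.7%), from which nothing is read.

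**Figure D2:**
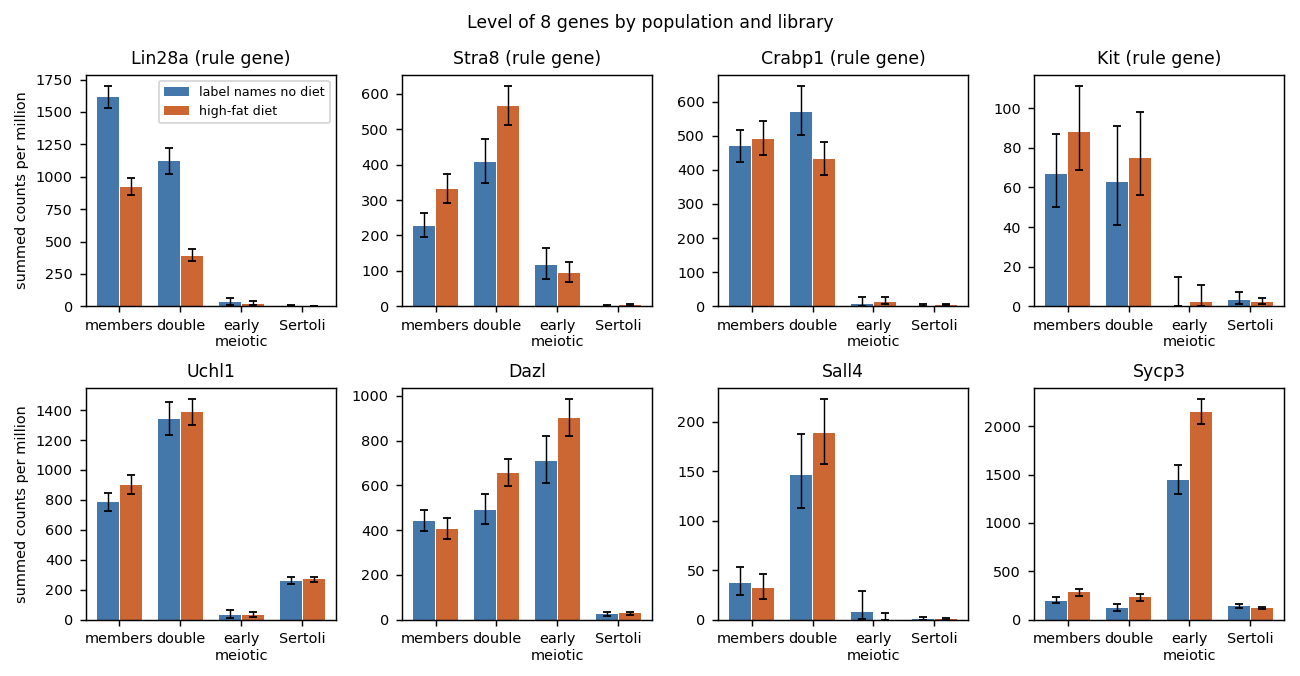
Summed CPM (vertical axes, from 0) of 8 genes in members, double-marked, early meiotic-marked and Sertoli-marked barcodes of each library; error bars are 95% exact Poisson intervals, and panels of genes used by the rule say so. Uchl1 stands at 783 and 901 CPM in members, above early meiotic-marked barcodes (31.9 and 31.4) and below double-marked barcodes (1341 and 1385), while Sycp3 is highest in early meiotic-marked barcodes (1442 and 2152).

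Barcodes that met the rule for the differentiating genes but also held markers of the undifferentiated state are called double-marked (61 and 67, median 5650 and 7321 UMIs, deeper than members). Between these and the members few genes differed: 47 of 4728 were higher in members in both libraries (0.994%) and 46 lower (0.973%). Of 10 tested spermatogonial genes outside the rule 4 were lower in members and 1 higher, with median log2 ratios of −0.94 and −0.74 beside 0.05 and 0.02 over all genes tested.

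In the list of other genes of the undifferentiated state 1 of 5 tested was lower in members, the cell surface proteoglycan Sdc4, and 0 were higher. The genes named next were picked after their values were seen. Sall4 stood at 37.0 and 31.5 CPM in members and at 146 and 188 CPM in double-marked barcodes. Ccnd2, the cyclin D2 of the G1 phase, stood at 49.3 and 35.3 CPM against 211 and 451 CPM; in the high-fat library 1 member held 42.9% of its member counts. Egr4, a zinc finger transcription factor, was at 33.3 and 29.0 CPM against 71.9 and 117 CPM. Sdc4 was at 44.4 and 76.9 CPM against 204 and 330 CPM, and tubulin Tubb5 at 123 and 164 CPM against 473 and 664 CPM. All of these were lower in both libraries. Sertoli-marked barcodes carried Sdc4 at 127 and 199 CPM and Tubb5 at 167 and 213 CPM, both above their levels in members.

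The genes higher in members than in double-marked barcodes included several of later germ cells. Prss50, a testis serine protease homologue, had 103 and 123 UMIs in members and 4 and 4 in double-marked barcodes, a ratio of 13.7 (5.18 to 51.1) and 27.4 (10.4 to 102). Meioc, which keeps the meiotic programme running, was at 64.1 and 63.0 CPM against 18.6 and 8.49 CPM. It was the 1 of 19 tested genes of meiotic entry and prophase that was higher, and 0 were lower (median log2 ratios 0.29 and 0.32). The surface protein gene Ly6k was at 164 and 231 CPM against 48.7 and 50.9 CPM, but all non-members together had 152 and 164 CPM of it. The X-linked homeobox gene Esx1 was at 66.6 and 71.8 CPM against 13.9 and 25.5 CPM. Defb19, a Sertoli cell gene, was also higher, at 80.1 and 140 CPM against 23.2 and 28.3 CPM; the part of Sertoli RNA in this comparison was not tested.

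Early meiotic-marked barcodes (78 and 144, median 2610.5 and 3016.5 UMIs) were picked by Dmc1, Prdm9, Meiob, Rad51ap2, Mei1, Inca1 and Gm960 among barcodes that met neither the form of the differentiating rule genes nor that of the undifferentiated ones. Here the members differed more: 346 of 4401 genes were higher in both libraries (7.86%) and 524 lower (11.9%). Sycp1, Sycp2 and Sycp3, which build the synaptonemal complex, were lower in members. Sycp1 was at 126 and 173 CPM against 1282 and 1525 CPM, a ratio of 0.0981 (0.0777 to 0.123) and 0.113 (0.0937 to 0.136). Sycp2 was at 64.1 and 112 CPM against 908 and 904 CPM, and Sycp3 at 197 and 282 CPM against 1442 and 2152 CPM. Sertoli-marked barcodes carried Sycp3 at 142 and 123 CPM.

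Of 23 tested genes of meiotic entry and prophase 16 were lower in members and 1 higher, with median log2 ratios of −1.69 and −1.72 beside −0.03 and −0.09 over all genes. The 1 that was higher was Rec114, a partner of the enzyme that makes meiotic DNA breaks, at 65.3 and 64.3 CPM against 15.9 and 29.5 CPM. Hormad1, which marks unpaired chromosome axes, was at 34.5 and 23.9 CPM against 211 and 305 CPM. The helicase Hfm1, outside the list, had 5 and 12 UMIs in members and 53 and 112 in early meiotic-marked barcodes.

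Of 4 tested spermatogonial genes outside the rule 3 were higher in members than in early meiotic-marked barcodes and 0 lower. Uchl1 was 24.6 times (12.4 to 57.2) and 28.7 times (17.5 to 50.4) as high, and Tcf3, an E-protein transcription factor, was at 60.4 and 94.5 CPM against 19.9 and 19.7 CPM. Over all genes tested in this comparison 7.86% were higher and 11.9% lower. Among metabolic lists, 3 of 9 glycolysis genes were higher and 0 lower, with median log2 ratios of 0.54 and 0.72. Of 37 genes of nuclear oxidative phosphorylation 5 were higher and 2 lower. In fatty acid handling 1 of 8 was higher, and in cholesterol synthesis 0 of 3. The glycolysis enzyme Gapdh was at 541 and 489 CPM against 55.7 and 33.4 CPM, and the fatty acid synthase Fasn at 107 and 89.5 CPM against 7.96 and 7.86 CPM. Sertoli-marked barcodes also carried Fasn, at 31.8 and 31.0 CPM.

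Cytosolic ribosomal protein genes were higher for 20 of 59 and lower for 0, with median log2 ratios of 1.04 and 0.81. Other groups were mixed. In DNA replication 2 of 21 genes were higher, Mcm2 and the licensing factor Cdt1 (61.6 and 60.5 CPM against 3.98 and 3.93 CPM), and 1 was lower. In DNA methylation 4 of 19 were higher, among them the maintenance enzyme Dnmt1 (126 and 98.3 CPM against 39.8 and 29.5 CPM) and Dnmt3a, and 2 were lower. In mitotic division 1 of 18 was higher and 3 lower, with Top2a, the topoisomerase of dividing chromosomes, at 291 and 242 CPM against 944 and 688 CPM.

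**Figure D3:**
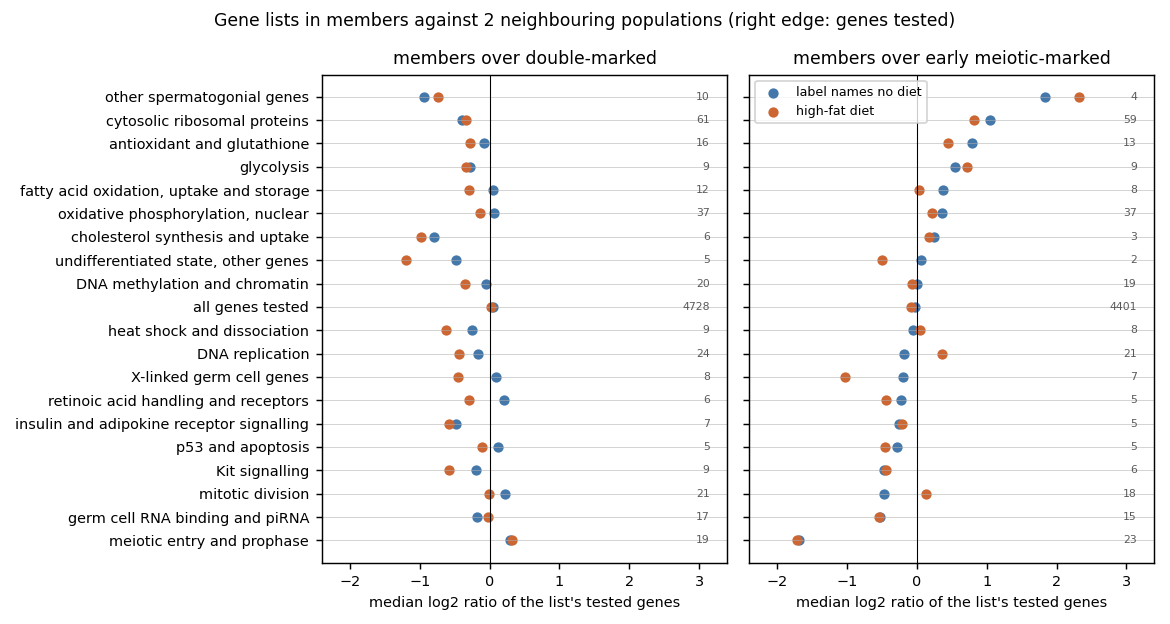
Median log2 ratio of the tested genes of each list (horizontal) in members over double-marked barcodes (left panel) and over early meiotic-marked barcodes (right panel), with 1 point per library and the number of tested genes at the right edge. Against double-marked barcodes the other spermatogonial genes lie at −0.94 and −0.74; against early meiotic-marked barcodes the meiotic list lies at −1.69 and −1.72 and the ribosomal proteins at 1.04 and 0.81.

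Outside the rule, the 15 genes with the highest ratio of members over all other barcodes are given as a description, because that contrast chose the members. Olfr655, an olfactory receptor gene, led at 370 and 379 CPM in members, with 24.7% and 37.5% of its member counts in 1 barcode and UMIs in 62 and 41 members. Pabpc4, a poly(A)-binding protein, stood at 155 and 179 CPM in 69 and 58 members. P3h3, a collagen prolyl hydroxylase, stood at 350 and 470 CPM in 77 and 85 members, and in double-marked barcodes at 220 and 262 CPM. Zrsr2, an X-linked splicing factor of the minor spliceosome, stood at 212 and 244 CPM in 86 and 96 members and at 362 and 441 CPM in double-marked barcodes. Both were therefore carried by barcodes on either side of the limit on undifferentiated markers.

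The remaining genes of the 15 were Asb18, Pgpep1l, Inpp5f, Plaur, Draxin, Slc25a13, 2810459M11Rik and 4 gene models (Gm11961, Gm13075, Gm2424 and Gm37711), whose symbols give no function. Gm37711 was found in 105 and 101 members, more than any rule gene but Crabp1 and Lin28a in the first library and Crabp1 and Dmrt1 in the high-fat library. Slc25a13, a mitochondrial aspartate-glutamate carrier, was found in 29 and 47 members, at 290 and 619 CPM. In early meiotic-marked barcodes Slc25a13 was at 522 CPM in the first library and at 7.86 CPM in the high-fat library.

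Members were then divided by their own Stra8 counts: 122 and 129 had none, 33 and 30 had 1, and 37 and 53 had 2 or more (19.3% and 25.0% of members). Those with 2 or more were deeper, with medians of 4104 and 3495 UMIs against 2793.5 and 2962 in those with none. Stra8 is a rule gene, so the division changes how the other rule genes had to be represented, and only genes outside the rule are read. Higher in both libraries in members with 2 or more Stra8 UMIs than in those with none were 10 of 2421 genes (0.413%), and lower were 29 (1.2%).

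Several of the genes higher beside Stra8 are known from germ cells entering or passing through meiosis. Ly6k was at 99.5 CPM in members without Stra8 and at 340 CPM in those with 2 or more in the first library, and at 97.6 and 504 CPM in the high-fat library. Tex101, a germ cell surface protein, was at 115 and 283 CPM in the first library and at 104 and 513 CPM in the high-fat library. Prss50 was at 76.1 and 249 CPM, and at 79.8 and 313 CPM. In each of these genes the interval of the ratio lay above 1 in both libraries. They were picked after their values were seen, and the intervals cover counting error only, so this is a description. Zcwpw1, which reads histone marks in meiosis, was at 144 and 294 CPM, and at 160 and 413 CPM. Gmnn, geminin, the inhibitor of replication licensing, was at 117 and 249 CPM, and at 75.4 and 191 CPM.

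The meiotic list as a whole was less even between the libraries. Of its 12 tested genes 0 were 2-fold higher and 0 lower in both, and its median log2 ratio was 0.22 in the first library and 1.02 in the high-fat library, beside 0.02 and 0.00 over all genes. Sycp3 was at 166 and 277 CPM without and with Stra8 in the first library, and at 104 and 565 CPM in the high-fat library. Prdm9, which sets the places of meiotic DNA breaks, was at 19.5 and 67.9 CPM in the first library and at 11.1 and 104 CPM in the high-fat library. Mki67 ran the other way by value, at 113 and 39.6 CPM, and at 86.5 and 34.8 CPM. Members that also met the early meiotic form numbered 9 and 15, of which 7 and 12 had 2 or more Stra8 UMIs and 0 and 0 had none. As a description of rule genes, Stra8 stood at 974 CPM in the 9 and at 1021 CPM in the 15, and Lin28a had 7 and 0 UMIs there, Kit 3 and 0, and Sohlh1 1 and 0; each 0 allows up to 80.2 CPM.

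**Figure D4:**
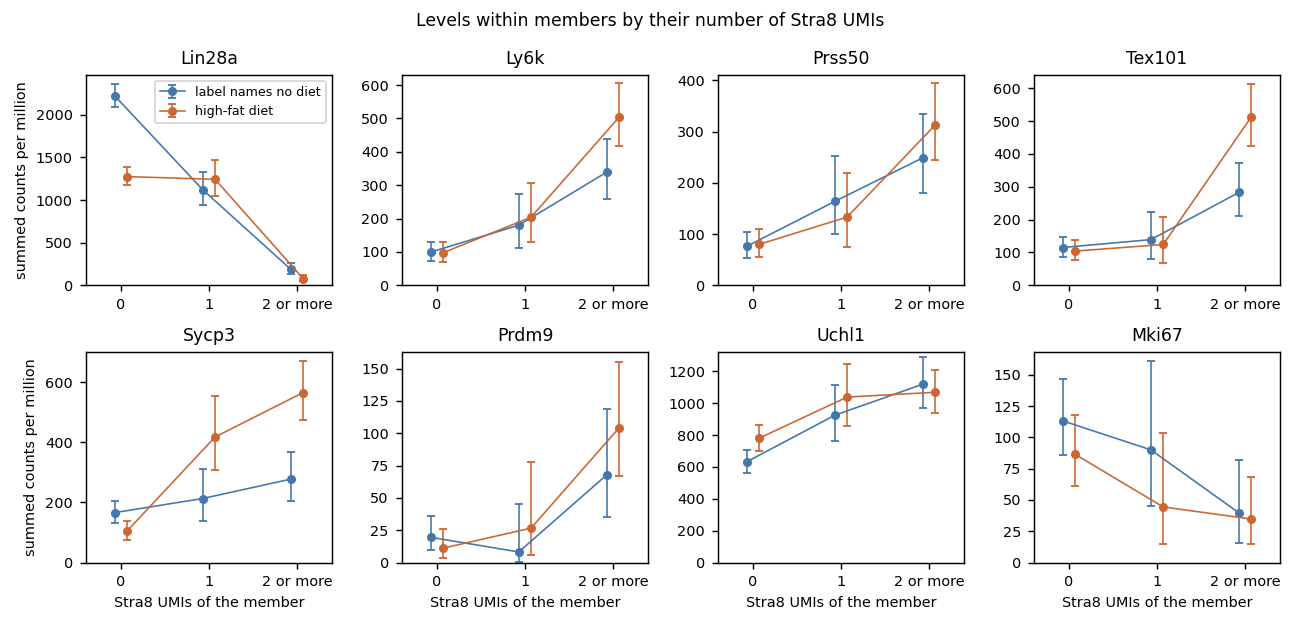
Summed CPM (vertical axes, from 0) of genes in members with 0, 1 and 2 or more Stra8 UMIs (horizontal), in each library, with 95% exact Poisson intervals. Ly6k, Prss50 and Tex101 are highest in members with 2 or more Stra8 UMIs in both libraries (Ly6k 340 and 504 CPM); Lin28a is a rule gene, and its panel is a description only.

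Members with much Lin28a were looked at separately. A limit of 10 Lin28a UMIs, chosen after the skew of its counts had been seen, took out 39 members (20.3%) of the first library and 22 (10.4%) of the high-fat library. Against the other members 5 of 2884 genes were higher in both libraries (0.173%) and 32 lower (1.11%). Stx2, a syntaxin of membrane fusion, was at 344 and 304 CPM in them against 45.2 and 46.3 CPM in the other members. The adenylate kinase gene Ak9 was at 503 and 471 CPM against 77.8 and 192 CPM. Brca2, a DNA repair gene, was at 186 and 167 CPM against 90.4 and 79.5 CPM.

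Uchl1 and others were lower in these members. Uchl1 was at 430 and 432 CPM against 948 and 970 CPM, a ratio of 0.453 (0.366 to 0.557) and 0.445 (0.320 to 0.604). Tubb5 was at 34.8 and 49.1 CPM against 165 and 181 CPM, and the X-linked mRNA export gene Nxf2 at 38.7 and 29.4 CPM against 118 and 67.9 CPM. Dazl was at 259 and 236 CPM against 528 and 431 CPM, short of 2-fold in the high-fat library.

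Between the libraries, members made up 1.39% of barcodes (1.20% to 1.60%, exact Clopper-Pearson) in the first library and 1.67% (1.46% to 1.91%) in the high-fat library. The difference was 0.284 percentage points (Newcombe interval −0.0124 to 0.584), an interval that includes 0. The other barcodes form the denominator, and they differed as well: Sertoli-marked barcodes were 5.37% and 9.92%, and early meiotic-marked barcodes 0.565% and 1.14%. Without members that also met a somatic or spermatid form the shares were 0.420% and 0.0237%, but that leaves 58 and 3 members, since nearly all high-fat members met the elongating spermatid form.

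In the members' summed counts, 169 of 6221 genes with 50 or more UMIs over both libraries were higher in the high-fat library (2.72%) and 220 lower (3.54%). The median log2 ratio was 0.03, and 81.6% of genes were within 1.5-fold. Of the 389 genes past 2-fold, 161 had over 20% of their counts in 1 barcode of the library where they were higher, and 228 were spread over more members. In all non-members, 95 of the 389 (24.4%) were past 2-fold the same way and 96 pointed the opposite way. The same shares over all 6221 genes are not given here, so no excess or lack is read from these counts. Without the members given high doublet scores, 3 of which hold 7.24% of the first library's member counts and 2 hold 0.719% of the high-fat library's, the counts became 308 higher and 229 lower of 6042 genes. At 200 or more UMIs, 13 of 1436 genes were higher and 34 lower.

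The rule genes differed less than 2-fold between the libraries. Lin28a was lower in the high-fat library by value, at 1614 and 924 CPM (ratio 0.572, 0.522 to 0.627), with the uneven spread over barcodes given above. Stra8 was at 227 and 331 CPM (ratio 1.46, 1.21 to 1.77), and over all non-members its log2 ratio was 1.13. Kit was at 66.6 and 88.2 CPM (ratio 1.33, 0.916 to 1.93). Crabp1, at 468 and 491 CPM, and Dmrt1, at 218 and 223 CPM, had ratios of 1.05 and 1.02.

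Gene groups of spermatogonial biology kept medians near that of all genes. Across the 19 lists the median log2 ratio of members ran from −0.11 for antioxidant genes to 0.36 for other genes of the undifferentiated state, of which 4 were measured. In 13 lists no gene passed 2-fold in either direction, while over all genes 2.72% were higher and 3.54% lower. These lists include the 11 measured spermatogonial genes outside the rule, the 23 of mitotic division, the 22 of DNA methylation and the 37 of nuclear oxidative phosphorylation. Uchl1 was at 783 and 901 CPM (ratio 1.15, 1.03 to 1.28), Dazl at 443 and 406 CPM, and Mki67 at 93.7 and 65.5 CPM (ratio 0.699, 0.482 to 1.01). Aldh1a2, which makes retinoic acid, was at 60.4 and 30.2 CPM, a ratio of 0.501 (0.294 to 0.832); in non-members its log2 ratio was −0.75.

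Metabolic groups that a diet study would look at gave few genes past 2-fold in members, as did all genes (2.72% higher and 3.54% lower). None of 13 measured genes of fatty acid handling (37 listed) passed 2-fold, nor of 10 of insulin and adipokine signalling (20 listed), nor of 12 of glycolysis (19 listed). With so few genes measured, this is near the share over all genes. The lipid-binding gene Fabp9 was at 1379 and 1371 CPM, and the insulin-like growth factor receptor Igf1r at 88.8 and 73.1 CPM. The level of Fabp9 was lower in members than in non-members, which held 992751 and 922745 of its UMIs. In the first library 1 member held 12.9% of its member counts. The part of other germ cells' RNA in its level in members was not tested. Of 11 cholesterol genes 1 was higher, Ebp, a sterol isomerase, at 11 and 52 UMIs. Those came from 4 and 2 members, with 71.2% of the high-fat counts in 1 barcode.

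In DNA replication 1 of 31 genes was higher and 1 lower. Pcna, the sliding clamp, was at 35.7 and 86.9 CPM (ratio 2.43, 1.56 to 3.89), in 28 and 56 members; over all non-members its log2 ratio was 1.5, so it was also higher outside this population. Gins3, a helicase cofactor, was at 61.6 and 12.6 CPM (ratio 0.204, 0.0924 to 0.408), and its log2 ratio over non-members was −1.18. The X-linked crossover gene Tex11 was at 78.9 and 35.3 CPM (ratio 0.447, 0.276 to 0.707), while over non-members its log2 ratio was 0.20. It was the 1 of 8 X-linked genes past 2-fold.

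The heat shock and dissociation list had 2 of 10 genes higher and 0 lower. Jund, an AP-1 transcription factor, was at 37 and 137 UMIs (ratio 3.78, 2.62 to 5.60), with a log2 ratio of 1.26 over non-members. Nr4a1, an immediate early gene, had 87.8% of its high-fat counts in 1 barcode. In the meiotic list 1 of 23 genes was higher, Majin, which tethers telomeres to the nuclear envelope, with 17 and 35 UMIs and 35.3% and 25.7% of them in 1 barcode. Of 60 measured genes of the ribosomal protein list 3 were higher, Rpl14, Rpl13 and Rpl34, with ratios of 9.23, 5.82 and 2.42. Over non-members their log2 ratios were 3.90, 3.30 and 1.44. Rpl26, which the list leaves out, had a larger ratio of 25.7 (18.8 to 36.1). Ribosomal protein genes have many near-identical pseudogenes, so these values are uncertain.

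Apart from Gm49313 and Abat, the genes with the largest ratios between the libraries were past 2-fold the same way in all other barcodes. Atp6ap1l had 1 and 99 UMIs in members (ratio 101, 17.7 to 4037), and its log2 ratio was 6.66 in members and 6.63 in non-members. 4933432K03Rik had 1 and 93 UMIs, 1700095B10Rik 3 and 53, 1700108N11Rik 13 and 131, and 1700092C10Rik 8 and 65. Rpl26 had 41 and 1032 UMIs. Dynlt1a had 1 and 60 UMIs, and Dynlt1f had 0 and 79 (at least 26.9-fold higher against 3 counts over the population). They are near-identical copies, and whether their reads were split unevenly was not tested. Gm49313 had 0 and 95 UMIs, at least 32.4-fold higher by the same floor. The lowest ratios belonged mostly to gene models and ribosomal pseudogenes: Gm6218, Gm8623, Gm11942, Gm9396, Gm15772, Gm10036, Rps24-ps3 and Rpl21-ps15. Whether these share reads with other genes was not tested.

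A smaller set of genes was lower in high-fat members but not to the same degree elsewhere. AB124611 had 302 UMIs in 50 members of the first library and 3 in the high-fat library (ratio 0.0102, 0.00208 to 0.0300), with a log2 ratio of −6.62 in members and −2.07 in non-members. Abat, which breaks down GABA, had 92 UMIs in 35 members and 1 UMI (ratio 0.0111, 0.000278 to 0.0635), with log2 ratios of −6.49 and −0.96. Sdk2, a cell adhesion gene, had 166 UMIs in 51 members and 14 in 14 members, with log2 ratios of −3.54 and 0.31.

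Fam163a, Il11ra1, Tbcd and Dock4 followed the same pattern. Fam163a had 92 and 2 UMIs (ratio 0.0222, 0.00265 to 0.0826). Il11ra1, the interleukin 11 receptor, had 91 and 10 UMIs, the tubulin cofactor Tbcd 70 and 8, and Dock4, an activator of small GTPases, 64 and 9. Over non-members their log2 ratios lay between −0.84 and 0.08. These genes were taken for their difference from non-members, so that difference is a description.

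In the opposite direction, Cdkn2a, the tumour suppressor locus of p16 and p19Arf, was higher in high-fat members while lower elsewhere. It had 27 UMIs in 27 members and 76 in 53 members (33.3 and 95.8 CPM; ratio 2.88, 1.83 to 4.64), and a log2 ratio of −1.23 in non-members. Evpl, a protein of cell junctions, had 16 and 34 UMIs (ratio 2.17, 1.17 to 4.21), against a log2 ratio of −3.67 in non-members. Its direction did not hold among members with 20 or more rule UMIs per 10000, where the log2 ratio was −0.37. Zmynd8, a chromatin reader, had 43 and 9 UMIs and log2 ratios of −2.22 and −4.62, and Ubash3a had 45 and 26 UMIs with −0.76 and −5.30. Rdm1, Rnaseh2b and Espn, with log2 ratios between −0.90 and −0.57 in members, also lay less far below 0 than in non-members. Runx3 had 27 and 35 UMIs in members, with log2 ratios of 0.41 and 4.18, and 4933427G23Rik had 32 and 27 UMIs, with −0.21 and 3.46; both were higher in non-members of the high-fat library.

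**Figure D5:**
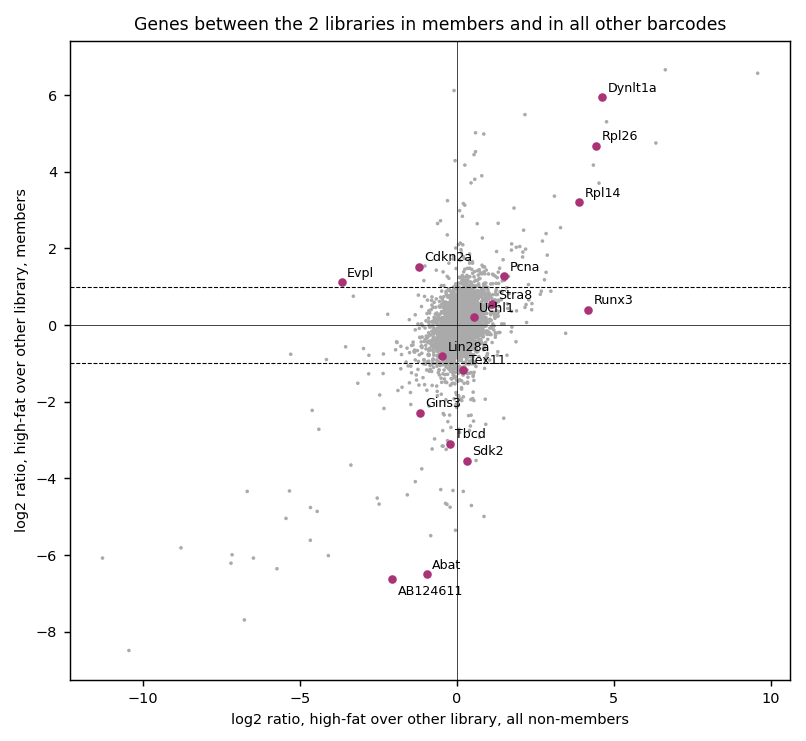
Log2 ratio of the high-fat over the other library in all non-members (horizontal) and in members (vertical), 1 point per gene with 50 or more member UMIs; labelled genes are named in the text. Rpl14 lies at 3.90 in non-members and 3.21 in members, while Sdk2 lies at 0.31 in non-members and −3.54 in members.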

How the data were processed

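Droplet libraries of mouse testis were compared as deposited: 1 matrix of raw UMI counts per library, which the authors had made with PISA 1.0 per the file headers; the submitters' processing notes name Cell Ranger 2.1.1, and for the aligner, build and annotation the entry is "not given in the sources used here". Barcodes had been filtered before deposit (the shallowest held 1000 and 1025 UMIs). Members and gene lists were chosen with earlier results of these data known. Counts were summed over the members of each library and divided by the summed total; genes with 50 or more UMIs were compared, and 2-fold was the call, since 1 library per group allows no test. A gene at 0 was set against 3 counts. Shares of barcodes with a UMI were read after thinning to 1000 UMIs (seed 1).

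Genes named between libraries were the rule genes, the 10 highest and 10 lowest ratios and the 10 highest and 10 lowest differences from non-members (UMIs in 10 or more members and at most 20% in 1 barcode of the higher library), and each list's extremes and highest level, of which the text gives a part. Genes named in the comparisons between populations and within members were picked after their values were seen, apart from the 15 with the highest ratio over other barcodes at 100 or more UMIs. The early meiotic, Sertoli and other classes used the same form as the members (3 UMIs, 2 genes, 10 per 10000). A shared barcode name was not taken as a shared cell. Scrublet (scanpy 1.11.5) scored doublets; its own threshold marked no barcode of the high-fat library, so the top 6% of scores per library was used, chosen after seeing this. No doublets were removed from the main values. Scripts ran in Python 3.11.15 with pandas 2.3.3, scipy 1.17.1 and numpy 2.4.6, and the counting script was tested on simulated data. Alternatives were other scaling, count minimums, equal weights, thinning to 2000 UMIs, other rule limits, rules without each gene, and exclusion of subsets. Leaving out somatic-marked members, Lin28a-rich members or each gene's top barcode was added after seeing the data.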

Additional observations from a re-analysis of the deposited data

How the results depend on the processing

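The difference in the members' share of barcodes kept its direction under every alternative run but 1, with values from 0.125 points (rule without Crabp1) to 0.493 points (rate of 5 per 10000). Its interval lay above 0 in 5 of them: the rate of 5, none of the genes kept low (0.271), barcodes with 2000 or more UMIs (0.454), the rule without Lin28a (0.339) and without members of 10 or more Lin28a UMIs (0.392). Without members that met a somatic or spermatid form it was −0.396 points (−0.520 to −0.291), with 58 and 3 members, and gene values were not run there. The number of genes past 2-fold, 169 higher and 220 lower, became 570 and 623 at 20 UMIs, 13 and 34 at 200 UMIs, and 308 higher without high doublet scores. It was 328 higher with each member weighted equally, 119 higher (4.52%) and 87 lower (3.31%) of 2630 with members thinned to 2000 UMIs, and 170 higher (6.61%) and 136 lower (5.29%) of 2570 at a rate of 20 per 10000, larger shares of fewer genes than 2.72%, and except for the thinned lower share, than 3.54%. The last 2 alternatives, like the count minimums, change how many genes are compared; otherwise the cause was not tested. The median log2 ratio of all genes stayed between 0.00 and 0.05. Of the named genes' values 787 moved by less than their counting interval, 73 moved further, and 2 changed sign: Evpl to −0.37 at a rate of 20 and Nr4a1 to −0.0096 without its top barcode. Ebp and Nr4a1 gave no value at a rate of 20. Of the list medians 152 held and 19 moved. No paired analysis was possible because each group is 1 library. Depth limits these values: Kit, the least detected rule gene, had 54 and 70 UMIs in members.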
